A study of Drosophila melanogaster with 55 samples.

Results

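Trinucleotide simple repeats are tandem runs of a motif of 3 letters, such as (CAG)n, and their RNA was measured in stage 5 embryos of Drosophila melanogaster. The 62 trinucleotide names were all names written as a motif of exactly 3 letters in parentheses followed by n, out of 9263 repeat names in the RNA count tables, of which 9028 were simple repeats. Of the 62 names, 60 have a motif of 2 or 3 different letters, and the other two are (TTT)n and (CCC)n. Each of the 60 belongs to 1 of 10 classes of 6 names: 3 rotations of a motif and the 3 reverse complements, which describe the same stretch of double-stranded DNA.

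The series holds 55 samples on the acetylation of histone H3 and the recruitment of SetDB1, also called Eggless, which methylates histone H3 in heterochromatin. RNA was counted in 4 groups of 3 libraries, each from the total RNA of a single embryo. The Gcn5 knockdown embryos carried GFP-SetDB1 and nos-Gal4 with a Gcn5 RNAi construct, and their controls, the w knockdown embryos, carried GFP-SetDB1 and nos-Gal4 with RNAi against w (white). The SetDB1 F578A embryos, whose labelled genotype is SetDB1 F578A/CyO, were set against SetDB1 WT embryos. The Gcn5 protein acetylates histones, and nos-Gal4 drives RNAi in the female germline, whose products the early embryo receives from its mother. CyO is a balancer chromosome named in the F578A label and not in the WT label, so an effect of the allele and one of the balancer cannot be told apart. The tables list no genes, so neither the knockdowns nor a cell type marker could be checked in these libraries. Nothing in the labels says whether embryos of a group came from different parents, and p-values then measure the spread between these embryos alone.

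A run of a 3-letter motif can lengthen or shorten inside an exon without a shift of the reading frame, and such runs encode stretches of a single amino acid. CAG and CAA are both codons for glutamine, and in Drosophila the opa or M repeats built from them encode the polyglutamine stretches of many developmental regulators. A repeat can be read in 3 frames, so CAG can also be read as GCA (alanine) or AGC (serine). The tables give no position for a copy of a repeat, no exon and no frame, so the codons named here are background on a motif.

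The 10 classes are listed because every result is ordered by them, each with the names on either strand and the amino acid that the motif would encode in frame.

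CAG/CTG class: CAG glutamine, GCA alanine and AGC serine, opposite CTG leucine, TGC cysteine and GCT alanine.
CAA/TTG class: CAA glutamine, ACA threonine and AAC asparagine, opposite TTG leucine, TGT cysteine and GTT valine.
GCC/GGC class: GCC alanine, CCG proline and CGC arginine, opposite GGC glycine, GCG alanine and CGG arginine.
CTC/GGA class: CTC leucine, TCC serine and CCT proline, opposite GGA glycine, GAG glutamate and AGG arginine.
TTA/TAA class: TTA leucine, TAT tyrosine and ATT isoleucine, opposite the stop codon TAA, ATA isoleucine and AAT asparagine.
GGT/CCA class: GGT glycine, GTG valine and TGG tryptophan, opposite CCA proline, CAC histidine and ACC threonine.
GAT/CAT class: GAT aspartate, the start codon ATG and the stop codon TGA, opposite CAT histidine, ATC isoleucine and TCA serine.
TCG/CGA class: TCG serine, CGT arginine and GTC valine, opposite CGA arginine, GAC aspartate and ACG threonine.
AGA/CTT class: AGA arginine, GAA glutamate and AAG lysine, opposite CTT leucine, TTC phenylalanine and TCT serine.
CTA/GTA class: CTA leucine, TAC tyrosine and ACT threonine, opposite GTA valine, the stop codon TAG and AGT serine.

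Library totals ran from 1923426 to 3209030 repeat counts, and 60 of the 62 trinucleotide names had 10 or more counts in every library. Counting error alone weighs most on the rarest names, such as (ACT)n and (CCC)n. The second w knockdown library stood apart from the other 11, with the highest share of ribosomal RNA, 9.17% of its repeat counts, and the lowest share of trinucleotide names. The third Gcn5 knockdown library stood apart in the TTA/TAA class. Values that move by more than 1.5 times without one of these libraries are given with and without it.

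Trinucleotide repeats held a large part of all repeat reads although they are few. They made up 0.669% of the names and 2.49% of the annotated repeat length, 753.5 kb of 30.21 Mb, but 39.2% ± 1.75 of the counts (SD, n = 12 libraries). In Gcn5 knockdown embryos the share was 39.06%, 40.16% and 38.89%, against 38.36%, 34.45% and 39.72% in w knockdown embryos. In F578A embryos it was 38.90%, 38.78% and 39.76%, against 39.48%, 41.32% and 41.20% in WT embryos. All 12 libraries thus lay within a narrow band apart from the second w knockdown library. Ranked by mean CPM (a name's counts scaled to 1000000 repeat counts per library), trinucleotide names took 5 of the first 10 places among all repeat names, 11 of the first 20, 31 of the first 50 and 47 of the first 100.

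The share differed little between groups. It was 39.4% ± 0.689 in the Gcn5 knockdown and 37.5% ± 2.73 in the w knockdown (SD, n = 3 each), a difference of 1.86 percentage points with a two-sided exact permutation p of 0.4. Without the second w knockdown library that difference was 0.331 points. F578A embryos had 39.2% ± 0.534 and WT embryos 40.7% ± 1.03 (SD, n = 3 each), a difference of -1.52 points with a two-sided exact permutation p of 0.2. As a share of simple repeat counts alone it was 46.6% ± 0.513 in F578A and 47.9% ± 0.449 in WT embryos (SD, n = 3 each), a difference of -1.39 points with no overlap and an exact permutation p of 0.1. Without ribosomal RNA names the difference was -1.76 points, with an exact permutation p of 0.1. There the groups all but touched, with the third F578A and the first WT library both at 40.69%. With 3 libraries against 3 the smallest p that this test can give is 0.1, so it could not pass a threshold of 0.05. In whole embryos, fewer cells of a type and less RNA per cell cannot be told apart.

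Relative to their annotated length, trinucleotide names drew more reads than simple repeats of other motif lengths. Their density was 457.3 to 548.4 CPM per annotated kb over the 12 libraries, with a median of 521.2. The median density was 128.5 CPM per kb for dinucleotide names, 108.4 for tetranucleotide names, 89.54 for pentanucleotide names and 256.8 for hexanucleotide names, whose motifs also keep a reading frame. Trinucleotide density was higher in 12 of 12 libraries than each of these 4. The ratio was 4.18-fold over dinucleotide names (mean log2 ratio 2.06 ± 0.163, SD, n = 12), 4.93-fold over tetranucleotide names, 5.78-fold over pentanucleotide names and 2.01-fold over hexanucleotide names (1.01 ± 0.105). A two-sided exact sign-flip permutation test over the 12 libraries gave an adjusted p of 0.000488 for each of the 4 ratios, the smallest it can give. All libraries share the same annotated lengths, so this tests the libraries and not the annotation. Names that are neither simple repeats nor ribosomal RNA, which include transposable elements, had a median of 4.976 CPM per kb.

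The classes of (CAG)n and of the other glutamine motif, (CAA)n, carried the most trinucleotide RNA. CAG/CTG held 14.2% ± 1.23 of repeat counts in Gcn5 knockdown embryos, 13.2% ± 2.03 in w knockdown embryos, 15.0% ± 0.938 in F578A embryos and 16.2% ± 1.05 in WT embryos (SD, n = 3 each, as in the class shares that follow). CAA/TTG held 7.42% ± 0.771 in Gcn5 knockdown embryos, 6.49% ± 2.00 in w knockdown embryos, 8.29% ± 0.202 in F578A embryos and 8.06% ± 0.178 in WT embryos. The wide spread of the w knockdown in both classes came with its second library, at 10.87% for CAG/CTG and 4.20% for CAA/TTG. The CAG/CTG class alone made up 31.6% to 41% of all trinucleotide counts in a library.

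(CAG)n was the most abundant of all 9263 repeat names. It averaged 52800 ± 4870 CPM in Gcn5 knockdown embryos, 49590 ± 5710 in w knockdown embryos, 58880 ± 2260 in F578A embryos and 63240 ± 3120 in WT embryos. (CAA)n ranked 4th among all names, with 39780 ± 1440 CPM in Gcn5 knockdown embryos, 34030 ± 10800 in w knockdown embryos, 42800 ± 1620 in F578A embryos and 40890 ± 1400 in WT embryos. (CTG)n, the complement of (CAG)n, ranked 5th at a mean of 34310 CPM over the 12 libraries. The names (CAG)n and (CAA)n together took 9.45%, 9.48% and 8.85% of repeat counts in the Gcn5 knockdown, against 9.24%, 6.46% and 9.38% in the w knockdown. In F578A embryos they took 10.2%, 10.1% and 10.2%, against 10.2%, 10.5% and 10.5% in WT embryos. Apart from the second w knockdown library, the share of these glutamine-codon names varied little from embryo to embryo within a group. Every knockdown library, at most 9.48%, lay below every F578A and WT library, at least 10.1%. Genotype and experiment cannot be told apart there.

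The next 3 classes each held between 2% and 7% of repeat counts. GCC/GGC, the class made of G and C alone, held 3.73% ± 0.810 in Gcn5 knockdown embryos, 4.22% ± 0.947 in w knockdown embryos, 3.90% ± 0.256 in F578A embryos and 4.42% ± 0.0806 in WT embryos. CTC/GGA held 3.43% ± 0.281 in Gcn5 knockdown embryos, 3.81% ± 0.701 in w knockdown embryos, 2.94% ± 0.149 in F578A embryos and 3.00% ± 0.0573 in WT embryos. TTA/TAA, made of A and T alone, held 2.85%, 3.08% and 6.70% in the Gcn5 knockdown libraries and 2.15% to 3.75% in the other 9. The third Gcn5 knockdown library was thus alone in its high TTA/TAA share.

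The other 5 classes were smaller. Over the 12 libraries GGT/CCA held a mean of 2.02% (1.65% to 2.58%), GAT/CAT 1.72% (1.6% to 1.84%), TCG/CGA 1.52% (1.37% to 1.77%) and AGA/CTT 1.28% (0.908% to 1.81%). CTA/GTA held 0.0479% (0.0416% to 0.0594%). The most abundant name was (TTA)n in TTA/TAA, at a mean of 21550 CPM, (GCC)n in GCC/GGC, at 16150, and (CTC)n in CTC/GGA, at 12630. In the smaller classes it was (AGA)n at 6113 CPM, (TCG)n at 5110, (GGT)n at 4280, (GAT)n at 3869 and (CTA)n at 156.6. The levels of these leading names thus spanned more than a factor of 100. (TTT)n held 0.0212%, and (CCC)n reached at most 1.86 CPM in any library and was too rare to be tested. GAT/CAT had the lowest coefficient of variation of the 10 classes in 3 of the groups and came after CAA/TTG (2.44%) in F578A embryos, with 5.35% in Gcn5 knockdown embryos, 1.47% in w knockdown embryos, 2.57% in F578A embryos and 0.754% in WT embryos. For the 10 classes together this coefficient ran from 5.35% to 51.2% in Gcn5 knockdown embryos, from 1.47% to 30.7% in w knockdown embryos, from 2.44% to 13.1% in F578A embryos and from 0.754% to 6.48% in WT embryos.

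**Figure D1:**
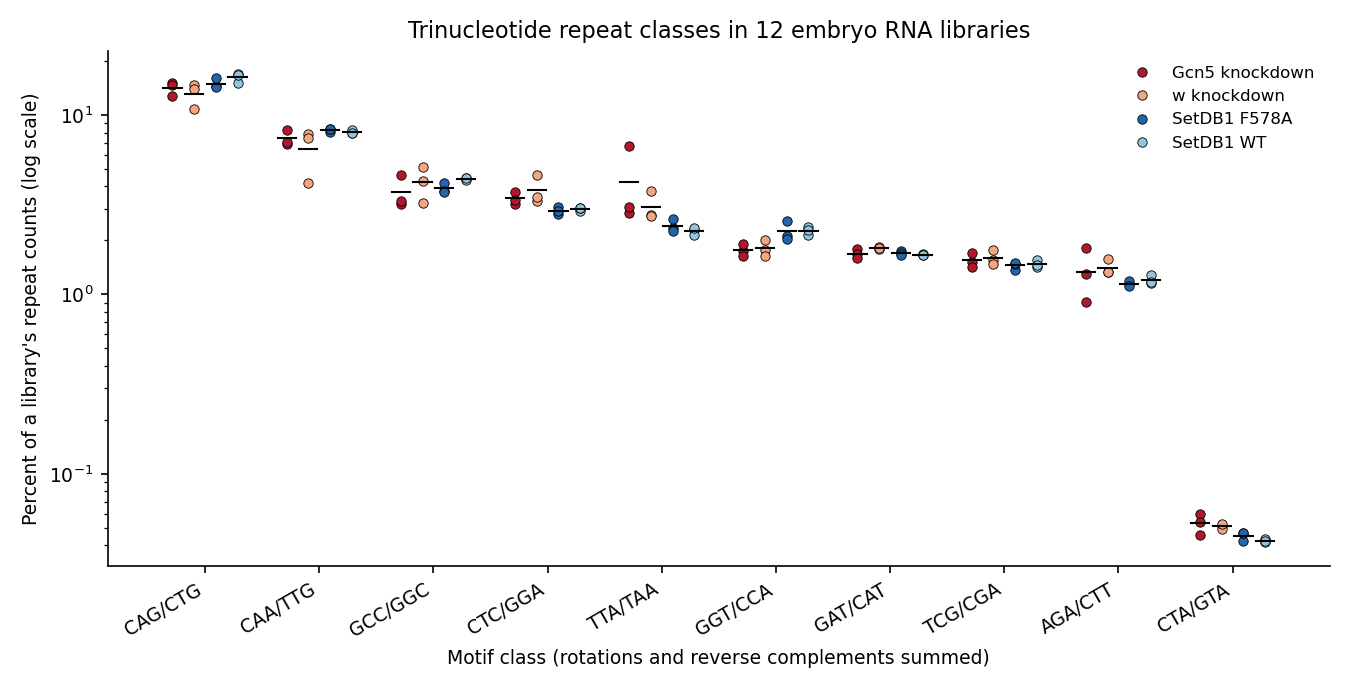
Share of a library's repeat counts (percent, log scale) in each of the 10 trinucleotide classes, with 1 point per library, colours for the 4 groups and a bar at the group mean of 3 libraries. CAG/CTG is highest at a mean of 14.6% and CTA/GTA lowest at 0.0479%, while the third Gcn5 knockdown library is high in TTA/TAA (6.70%) and the second w knockdown library low in CAA/TTG (4.20%).

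The order of the classes changed when levels were set per annotated kb. GCC/GGC was the densest class with a median of 2128 CPM per kb, then CTC/GGA with 1289 and AGA/CTT with 1155. CAG/CTG, first in counts, had 460.0 CPM per kb over 318.4 annotated kb, where GCC/GGC has 19.90 annotated kb. The TTA/TAA class had 237.7 and CTA/GTA 54.92 CPM per kb. By the letters of the motif, the median density was 229.0 CPM per kb for the 7 names with no G or C, 524.9 for the 24 names with 1, 528.0 for the 24 names with 2 and 2115 for the 7 names with 3. The density was thus about the same for motifs with 1 and with 2 of these letters and differed at both ends.

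Names of a class differed in density although they describe rotations and complements of the same duplex. In AGA/CTT, (AGA)n had a median of 13410 CPM per kb and (GAA)n 127.4, a ratio of 105. (AGA)n is annotated over 429 bases in all, so its 6113 CPM on average (3140 to 10540) fall on very little sequence. In TTA/TAA, (TTA)n had 915.2 CPM per kb and (TAT)n 42.28, a ratio of 21.6. In CTA/GTA, (CTA)n had 117.8 and (ACT)n 4.648 CPM per kb, and in CAG/CTG the spread was small, with 678.1 for (GCT)n and 382.6 for (CTG)n. The 6 names of a class can lie at different places in the genome, and the level of a single name covers its own copies alone.

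The names of the 2 strands of a class were read at unequal density in several classes. The density of (TTA)n, (TAT)n and (ATT)n together was 3.20 times that of (TAA)n, (ATA)n and (AAT)n (median, range 2.20 to 6.77 over 12 libraries). That ratio rested on (TTA)n, at a median of 915.2 CPM per kb, where (TAT)n had 42.28 and (ATT)n 55.01. On the other side (TAA)n had 222.6, (ATA)n 83.11 and (AAT)n 48.08 CPM per kb. (CAA)n, (ACA)n and (AAC)n had 1.94 times the density of (TTG)n, (TGT)n and (GTT)n (1.65 to 2.22), and (GGT)n, (GTG)n and (TGG)n had 1.61 times that of (CCA)n, (CAC)n and (ACC)n (1.17 to 1.85). (AGA)n, (GAA)n and (AAG)n had 5.09 times the density of (CTT)n, (TTC)n and (TCT)n (3.07 to 7.61). This rested on (AGA)n at 13410 CPM per kb, where (GAA)n had 127.4 and (AAG)n 565.2, against 609.8, 857.6 and 570.3 on the other side. Likewise (CAA)n had 1201 CPM per kb, where (ACA)n had 399.3 and (AAC)n 218.3, against 496.3 for (TTG)n, 219.9 for (TGT)n and 352.5 for (GTT)n. (CAG)n, (GCA)n and (AGC)n were close to (CTG)n, (TGC)n and (GCT)n at 1.17 (1.07 to 1.38), and (CTC)n, (TCC)n and (CCT)n had 0.868 times the density of (GGA)n, (GAG)n and (AGG)n (0.594 to 1.08). In the other 4 classes the median ratio lay between 1.05, for the side of (GTA)n over that of (CTA)n, and 1.33, for the side of (GAT)n over that of (CAT)n. Whether the counting used the strand of the read is not stated in the sources used here, and the ratios compare names and not sense and antisense RNA.

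**Figure D2:**
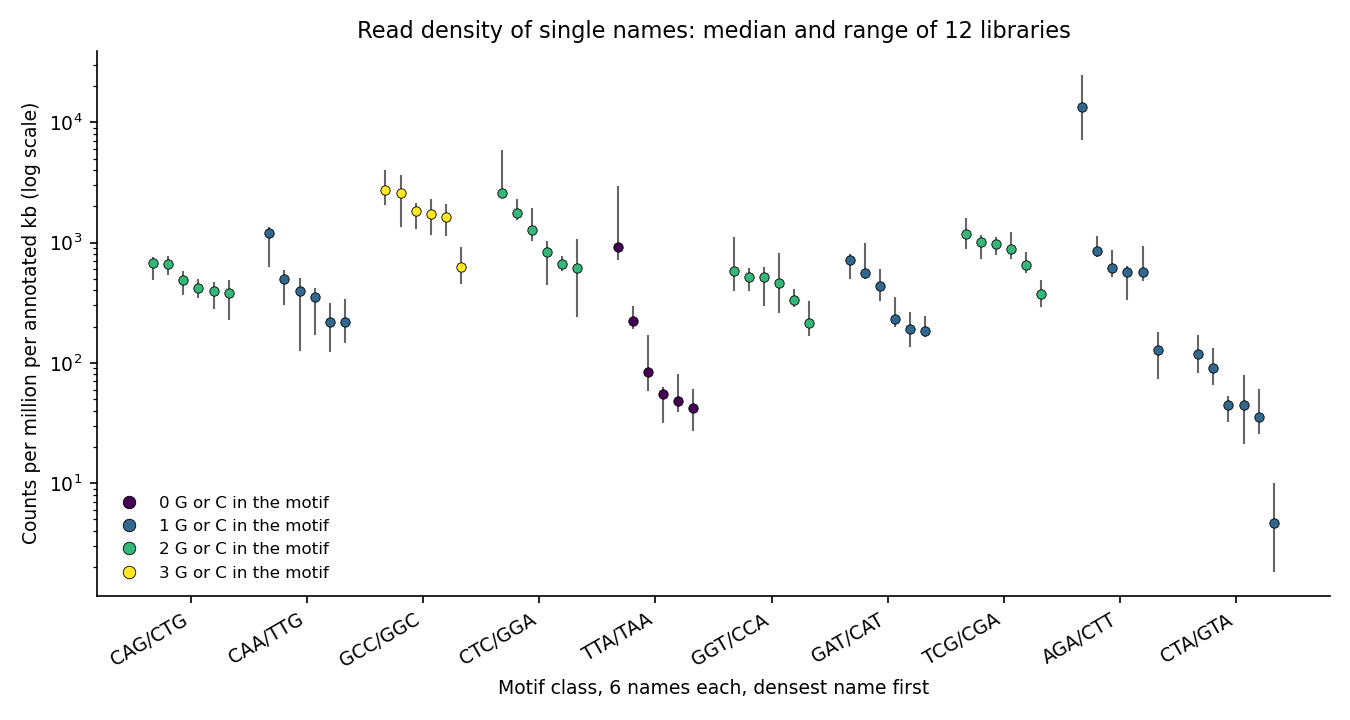
CPM per annotated kb (log scale) of the 60 names in the 10 classes, densest name of a class first; points are medians and lines the range over 12 libraries, coloured by the number of G or C letters in the motif. (AGA)n is highest at 13410 and (ACT)n lowest at 4.648 CPM per kb, and 5 of the 6 GCC/GGC names lie above 1000.

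In the fit on the group alone, no trinucleotide name passed the test in Gcn5 knockdown embryos against w knockdown embryos. With same-numbered libraries treated as pairs, 1 name was called, as given below. In the unpaired fit, 0 of 61 names tested passed an adjusted p of 0.05 in edgeR's quasi-likelihood test with Benjamini-Hochberg adjustment over all 2142 names tested. DESeq2 also called 0, and no trinucleotide name reached an unadjusted p under 0.05. Across all repeat names tested, edgeR called 0.0934% and DESeq2 0.654%, and 5.56% had an unadjusted p under 0.05. The median log2 fold change of the 61 names was 0.02, against 0.01 for all names tested, and the values ran from -0.38 to 0.80. Values were positive for 37 names and negative for 24, but with scaling by total counts 23 were positive and 38 negative. In the paragraphs on comparisons, CPM are scaled by TMM (trimmed mean of M values, an estimate of effective library size) within the comparison, so the same w knockdown library reads slightly differently in 2 comparisons.

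(TTA)n, a leucine codon in frame and the most abundant A and T motif, had the smallest p. It had 17793, 27431 and 61476 scaled CPM in Gcn5 knockdown embryos, against 17923, 17406 and 25865 in w knockdown embryos. The groups overlapped, and the third Gcn5 knockdown embryo was far above all others. The log2 fold change was 0.80 ± 0.38 (SE), with an adjusted p of 0.941 by edgeR, and 0.16 without the third Gcn5 knockdown library. Same-numbered libraries of both knockdowns deviated together, and with the replicate number as a block (TTA)n was the 1 name called, at a log2 fold change of 0.63 and an edgeR adjusted p of 0.0195. In the blocked fit 3.41% of all names were called, and that fit was not repeated without the third libraries.

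The other names with the smallest p values did not pass either. (CTA)n, a leucine codon in frame, had 196, 186 and 228 scaled CPM in Gcn5 knockdown embryos, against 139, 155 and 139 in w knockdown embryos. It was the 1 trinucleotide name of 61 whose groups did not overlap, where 5.28% of all names tested were higher in this way, and its log2 fold change was 0.50 ± 0.29 (SE). (CAC)n, which encodes histidine in frame, had 2008, 2784 and 2403 scaled CPM in Gcn5 knockdown embryos, against 2121, 1327 and 2007 in w knockdown embryos. (CAA)n had 36007, 42575 and 44905 scaled CPM in Gcn5 knockdown embryos, against 36740, 21811 and 39871 in w knockdown embryos. (GGA)n, a glycine codon in frame, had 4090, 5800 and 4657 scaled CPM in Gcn5 knockdown embryos, against 4409, 10346 and 4130 in w knockdown embryos. In (CAA)n and (GGA)n the second w knockdown embryo lay apart, low in one and high in the other. The log2 fold change was 0.40 for (CAC)n, 0.33 for (CAA)n and -0.38 for (GGA)n, each at an adjusted p of 0.993 by edgeR. Without the second w knockdown library these values were 0.21 for (CAC)n, 0.10 for (CAA)n and 0.18 for (GGA)n, whose sign turned.

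Summed by class, 0 of the 10 classes were called in Gcn5 knockdown embryos by edgeR, where 0.468% of the 854 rows tested were called. DESeq2 called 0, where it called 1.29% of all rows, and 0 classes reached an unadjusted p under 0.05, against 6.09% of all rows. TTA/TAA had 25861, 34235 and 72947 scaled CPM in Gcn5 knockdown embryos, against 26013, 27581 and 36293 in w knockdown embryos, a log2 fold change of 0.57 ± 0.34 (SE) that was 0.01 without the third Gcn5 knockdown library. CAA/TTG had 75228, 76248 and 77197 scaled CPM in Gcn5 knockdown embryos, against 73431, 42387 and 71902 in w knockdown embryos. On the TMM scale its groups did not overlap, with higher values in Gcn5 knockdown embryos as in 5.27% of all rows. As a share of counts without that scaling the groups overlapped, with 6.869% in the second Gcn5 knockdown library and 7.845% in the first w knockdown library. The second w knockdown embryo set the size of the class log2 fold change of 0.28 ± 0.25 (SE), which was 0.07 without it. CAG/CTG had a log2 fold change of 0.20 ± 0.22 (SE), which was 0.096 without the second w knockdown library. All 6 names of CAA/TTG and all 6 of CAG/CTG had positive values, also with scaling by total counts. In each of these names the second w knockdown library was the lowest of the 6 libraries, so these signs share 1 library. The most abundant name of each class had a log2 fold change between -0.10 and 0.80.

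SetDB1 F578A embryos had no trinucleotide name past the threshold against WT embryos, and most fold changes were small and negative. Of 61 names, edgeR's quasi-likelihood test with Benjamini-Hochberg adjustment over 2395 names called 0, and DESeq2 called 0. An unadjusted p under 0.05 was reached by 11 names, all of them lower in F578A embryos. Across all names tested, edgeR called 0.0418% and DESeq2 1.21%, and 3.22% were lower at an unadjusted p under 0.05. The median log2 fold change was -0.11 for trinucleotide names and 0.02 for all names tested, and 51 of 61 values were negative. With scaling by total counts 36 of 61 were negative, with a median of -0.03, and that scaling moved the median of all names to 0.10. On the TMM scale, in 14 of 61 names (23%) every F578A embryo was lower than every WT embryo, and in 0 every one was higher. Among all names tested, 7.22% were lower in this way and 5.09% higher. Trinucleotide names took 47 of the first 100 places by mean CPM, and these shares were not compared among names of like counts. In CPM by library totals some of the 14 overlapped, among them (GGT)n, (CCT)n, (CAC)n and (TAA)n. On that scale (ATA)n was higher in every F578A embryo, at 1644, 2024 and 1887 CPM against 1543, 1554 and 1530 in WT embryos.

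The 6 names of the GCC/GGC class were all lower in every F578A embryo than in any WT embryo on the TMM scale, and all 6 had an unadjusted p under 0.05. In CPM by library totals 4 of the 6 did not overlap, while (GCC)n at 15520 and (CGC)n at 4493 in the first F578A embryo were above the lowest WT embryo, at 15350 and 4102. Among the 4, (CCG)n only just separated, at 7038 in the first F578A embryo and 7042 in the second WT embryo. (CCG)n, a proline codon in frame, had 6512, 5787 and 5819 scaled CPM in F578A embryos, against 7446, 7476 and 7714 in WT embryos. Its log2 fold change was -0.32 ± 0.073 (SE), with the smallest p among the members and an adjusted p of 0.321 by edgeR. (GCC)n, an alanine codon in frame, had 14364, 14326 and 13829 scaled CPM in F578A embryos, against 16878, 16293 and 16435 in WT embryos. Embryos of a group lay close together, and the gap between groups was small beside the level. The log2 fold change of (GCC)n was -0.22 ± 0.054 (SE) (edgeR adjusted p = 0.360).

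The other 4 names of the class had the same order. (GGC)n, a glycine codon in frame, had 8389, 8003 and 8158 scaled CPM in F578A embryos, against 9243, 10099 and 10155 in WT embryos. (CGG)n, an arginine codon in frame, had 1854, 1638 and 1854 scaled CPM in F578A embryos, against 2136, 2400 and 2420 in WT embryos. (GCG)n, also an alanine codon, had 3548, 3647 and 4238 scaled CPM in F578A embryos, against 4291, 5343 and 4784 in WT embryos. None of the 3 pairs of groups overlapped, although (GCG)n came close. Their log2 fold changes were -0.26 for (GGC)n, -0.38 for (CGG)n and -0.33 for (GCG)n, with edgeR adjusted p values of 0.380, 0.409 and 0.679. (CGC)n, named here after its values were seen, had a log2 fold change of -0.19 and an adjusted p of 0.897 by edgeR.

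Summed, the GCC/GGC class had 38824, 37176 and 37635 scaled CPM in F578A embryos, against 44413, 45964 and 46035 in WT embryos. As a share of repeat counts without that scaling it was 4.20%, 3.77% and 3.73% in F578A embryos, against 4.45%, 4.33% and 4.48% in WT embryos, so the groups did not overlap on either scale. The class log2 fold change was -0.26 ± 0.042 (SE), with an unadjusted p of 0.00033 and an adjusted p of 0.099 by edgeR, which missed the threshold. With scaling by total counts it was -0.18 with an adjusted p of 0.404, and over all alternatives the edgeR or DESeq2 adjusted p ran from 0.0249 to 0.993. The value of 0.0249 came from a block on the replicate number, although same-numbered F578A and WT libraries did not all deviate together. With the block 0.641% of all rows were called. In the fit without it edgeR called 0 of the 10 classes, where 0.107% of the 936 rows tested were called, and DESeq2 called 0, where it called 1.28%. On the TMM scale GCC/GGC and AGA/CTT were lower in every F578A embryo, as were 7.16% of all rows. As a share of counts without that scaling AGA/CTT overlapped, with 1.192% in the second F578A embryo and 1.165% in the second WT embryo. Both classes had an unadjusted p under 0.05 by edgeR, as had 3.42% of all rows in that direction.

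The median fold changes over WT embryos fell with the G and C letters of the motif, in F578A embryos and in w knockdown embryos. In F578A embryos the median log2 fold change was 0.00 for the 7 names tested with no G or C, -0.06 for the 24 with 1, -0.17 for the 24 with 2 and -0.29 for the 6 with 3, and scaling by total counts shifts all of these alike. In w knockdown embryos, set against the same WT libraries, the medians were 0.22, -0.02, -0.14 and -0.27 in that order. They are not given without the second w knockdown library. Single names there did not keep the order, with values from -1.09 to 0.98 for no G or C and from -0.72 to 1.12 for 2. For the Gcn5 knockdown over the w knockdown the medians were -0.02, 0.04, 0.04 and -0.04, without such an order. AGA/CTT stood at -0.15 ± 0.061 (SE) as a class, at an adjusted p of 0.71 by edgeR. CAG/CTG had 135060, 140740 and 161690 scaled CPM in F578A embryos, against 150020, 179670 and 171870 in WT embryos, and the groups overlapped. Its log2 fold change was -0.20 ± 0.087 (SE), at an adjusted p of 0.754 by edgeR. (CAG)n itself had 54385, 55834 and 61661 scaled CPM in F578A embryos, against 59583, 68818 and 66990 in WT embryos, a value of -0.18 on the log2 scale and an adjusted p of 0.897 by edgeR. The most abundant names of the 10 classes ran from -0.22, for (GCC)n, to 0.00, for (TTA)n. (CAA)n overlapped fully, with 39615, 43757 and 41504 scaled CPM in F578A embryos, against 42460, 42541 and 41167 in WT embryos.

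The rare serine motif (AGT)n, named here after its values were seen, had the most negative value of the members in F578A embryos, a value of -0.70 on the log2 scale and an adjusted p of 0.702 by edgeR. TTA/TAA and CTA/GTA stood at 0.01 and 0.02 as classes, with 4 of 6 names positive in each. Repeats that are not simple and not ribosomal RNA made up 15.3%, 14.7% and 13.3% of the counts in F578A embryos, against 13.8%, 12.6% and 13.2% in WT embryos. Ribosomal RNA names made up 0.814%, 1.26% and 2.28% in F578A embryos, against 2.97%, 1.63% and 1.35% in WT embryos. Without the ribosomal RNA names the GCC/GGC class stood at -0.27, at an adjusted p of 0.0857 by edgeR, while the part of the other repeats in these values was not tested.

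**Figure D3:**
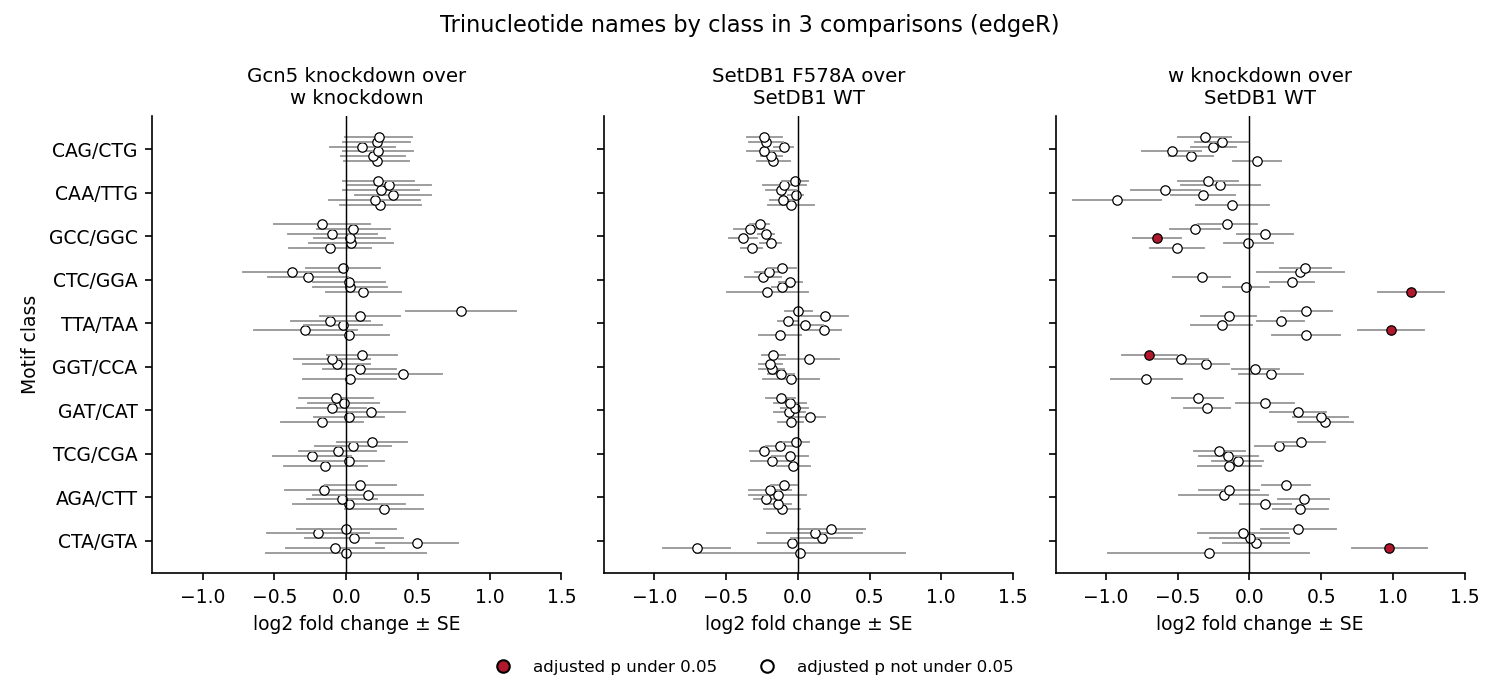
log2 fold change ± SE (x axis) of the 60 trinucleotide names by class (y axis) for the Gcn5 knockdown over the w knockdown, SetDB1 F578A over SetDB1 WT, and the w knockdown over SetDB1 WT; filled points passed an adjusted p of 0.05 by edgeR. No point is filled in the first and second panels, all 6 GCC/GGC names lie below 0 in the F578A panel, and 5 names are filled in the panel of both controls.

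The w knockdown embryos, set against the other controls, SetDB1 WT, had 6 trinucleotide names past the threshold. They carried GFP-SetDB1, nos-Gal4 and the w RNAi construct and belong to another experiment than SetDB1 WT embryos, so genotype and experiment cannot be told apart. Of 61 names tested, these 6 (9.84%) were called by edgeR, 3 higher and 3 lower in w knockdown embryos, where 23.5% of the 2257 names tested were called, 12.4% higher and 11.1% lower. DESeq2 called 3 higher and 4 lower, where it called 29.6% of all names. In 30 of 61 names (49.2%) the groups did not overlap on the TMM scale, 15 in each direction, against 21.4% of all names higher and 21.7% lower. Among other motif lengths, 21.5% of tetranucleotide, 21.7% of pentanucleotide and 25.8% of hexanucleotide names were called, and 1 of 11 dinucleotide names. Whether these shares differ was not tested, and none was compared among names of like counts. Trinucleotide names held 37.5% ± 2.73 of repeat counts in w knockdown embryos and 40.7% ± 1.03 in WT embryos (SD, n = 3 each), a difference of -3.15 points with a two-sided exact permutation p of 0.2, and of -1.62 points without the second w knockdown library. Of simple repeat counts alone the difference was -2.02 points, with no overlap and an exact permutation p of 0.1. Ribosomal RNA names took 6.05%, 9.17% and 2.11% of counts in w knockdown embryos, against 2.97%, 1.63% and 1.35% in WT embryos, and without these names 7 trinucleotide names were called, which included the 6.

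Higher in w knockdown embryos were (AGG)n, (ATA)n and (AGT)n, which encode arginine, isoleucine and serine in frame. (AGG)n had 1151, 1318 and 890 scaled CPM in w knockdown embryos, against 412, 629 and 499 in WT embryos. Its log2 fold change was 1.12 ± 0.23 (SE), at an adjusted p of 0.00675 by edgeR, and it was called in all 14 alternatives tried. (ATA)n had 2081, 3551 and 3714 scaled CPM in w knockdown embryos, against 1546, 1622 and 1555 in WT embryos, a value of 0.98 on the log2 scale and an adjusted p of 0.0118 by edgeR. (AGT)n had 98.3, 106 and 107 scaled CPM in w knockdown embryos, against 48.4, 57.6 and 51.9 in WT embryos, a value of 0.98 on the log2 scale and an adjusted p of 0.0218 by edgeR. The groups did not overlap in any of the 3. In each of their 3 classes 4 of 6 names were positive. None but these 3 passed the test, and values within CTC/GGA ran from -0.33, for (GAG)n, to 1.12, for (AGG)n.

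Lower in w knockdown embryos were (CGG)n, (TTT)n and (TGG)n, which encode arginine, phenylalanine and tryptophan in frame. (CGG)n had 1531, 1489 and 1394 scaled CPM in w knockdown embryos, against 2142, 2359 and 2396 in WT embryos, a value of -0.64 on the log2 scale and an adjusted p of 0.0203 by edgeR. (TTT)n had 153, 97.1 and 170 scaled CPM in w knockdown embryos, against 218, 371 and 306 in WT embryos, a value of -1.09 on the log2 scale and an adjusted p of 0.0209 by edgeR. (TGG)n had 3931, 2549 and 3363 scaled CPM in w knockdown embryos, against 5048, 5561 and 5341 in WT embryos, a value of -0.70 on the log2 scale and an adjusted p of 0.0261 by edgeR. Here too no w knockdown embryo overlapped a WT embryo. Some of these calls rest on single libraries. Without the third WT library 1 of the 6, (AGG)n, was called, with 271 calls among all names, and without the second the 3 higher names were called, with 441. Without the first or without the second w knockdown library 12 trinucleotide names were called, which included the 6, with 514 and 502 calls among all names.

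(CAG)n, the most abundant name, did not pass the threshold here either. It had 54541, 42042 and 49348 scaled CPM in w knockdown embryos, against 59755, 67657 and 66318 in WT embryos. Every w knockdown embryo was below every WT embryo, and the log2 fold change was -0.41, at an adjusted p of 0.077 by edgeR. (ACA)n of the CAA/TTG class, at -0.92 with an adjusted p of 0.0507 by edgeR, was the fourth lower name called by DESeq2, at 0.0293. Without the second w knockdown library (ACA)n stood at -0.59, at an adjusted p of 0.0146 by edgeR, and was called. As classes, CAG/CTG stood at -0.36 (edgeR adjusted p 0.122, and -0.23 without the second w knockdown library), GGT/CCA at -0.38 (0.0564) and TTA/TAA at 0.38 (0.0791), each at an unadjusted p under 0.05, as were 37.6% of all rows. The most abundant names of the 10 classes ran from -0.41, for (CAG)n, to 0.39, for (TTA)n, and 0 of them were called. Of the 10 classes 0 were called by edgeR, where 22.9% of the 882 rows tested were called, and 0 by DESeq2, where 29.4% were. Without the second w knockdown library both GGT/CCA and TTA/TAA were called, with edgeR adjusted p values of 0.0445 and 0.0232.

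**Figure D4:**
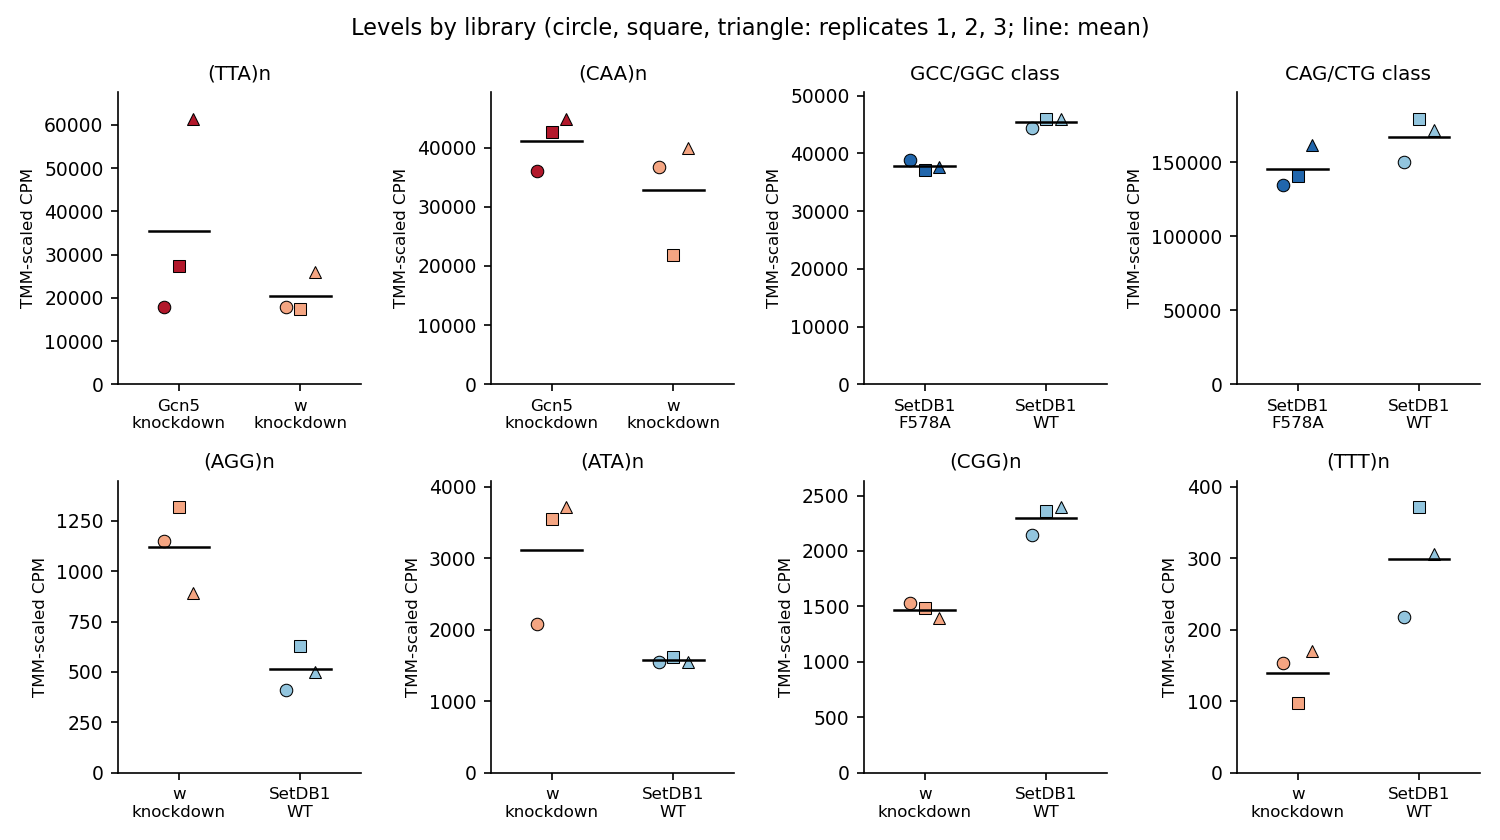
TMM-scaled CPM (y axis, from 0) of 6 names and 2 classes in the 3 libraries of each group compared, with circles, squares and triangles for replicates 1, 2 and 3 and a line at the mean. The third Gcn5 knockdown library stands alone at 61476 for (TTA)n, the GCC/GGC class lies at 37176 to 38824 in F578A and 44413 to 46035 in WT embryos, and the 4 names of the lower row do not overlap between w knockdown and WT embryos.

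Whether the Gcn5 knockdown and the F578A allele act differently on trinucleotide repeats was tested as the difference of both effects over all 12 libraries. No name passed: edgeR's quasi-likelihood test called 0 of 61 with Benjamini-Hochberg adjustment over 2458 names, where 0.0407% of all names were called. DESeq2 called 0 members and 0.244% of all names, and no member reached an unadjusted p under 0.05, against 5.45% of all names. The median difference was 0.19 for trinucleotide names and -0.01 for all names, and 45 of 61 were positive, that is, higher in the Gcn5 contrast. With scaling by total counts 31 of 61 were positive and the median of all names moved to -0.19.

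The 5 smallest p values of this test belonged to (TTA)n and to 4 names of the CAG/CTG class. The log2 difference was 0.79 ± 0.41 (SE) for (TTA)n and 0.38 ± 0.20 for (CAG)n, both at an adjusted p of 0.992 by edgeR. It was 0.46 for (TGC)n, 0.47 for (CTG)n and 0.44 for (GCT)n, each at an adjusted p of 0.997 by edgeR. For (TTA)n it was 0.16 without the third Gcn5 knockdown library. As classes, CAG/CTG stood at 0.40 ± 0.20 (SE) at an adjusted p of 0.823 by edgeR, TTA/TAA at 0.55 (0.901) and GCC/GGC at 0.20 (0.969). Without the third Gcn5 knockdown library TTA/TAA stood at 0.0084. Without the second w knockdown library CAG/CTG stood at 0.26, GCC/GGC at 0.36, (TGC)n at 0.31, (CTG)n at 0.26 and (GCT)n at 0.28. GCC/GGC also turned to -0.037 without the second Gcn5 knockdown library. Of the 10 classes, edgeR called 0, where 0.105% of the 950 rows tested were called, and DESeq2 called 0, where it called 0.632%. None reached an unadjusted p under 0.05, against 5.37% of all rows. All 6 names of CAG/CTG and all 6 of CAA/TTG were positive, also with scaling by total counts, but none passed the test. In each of these names the second w knockdown library was the lowest of its group.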

How the data were processed

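Each of the 12 RNA libraries came with 1 table of repeat names, annotated lengths and raw counts, deposited by the authors without normalization. The counting tool named is featureCounts 1.6.5 and the builds are dm6 and BDGP6, per the submitters' processing notes, and alignments from STAR are named per the file headers. The treatment of multi-mapping reads, the use of strand and the source of the repeat annotation are not given in the sources used here. Copies with shared sequence could therefore have exchanged reads. The series' 29 peak lists were not used. Groups and replicate numbers came from the labels, and the headers of the third library of each knockdown held no replicate number. Counting intervals and floors would cover counting error only, and none is given.

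All names passing filterByExpr were fitted in edgeR 4.0.16 (R 4.3.3, limma 3.58.1) with TMM scaling, the quasi-likelihood test and Benjamini-Hochberg adjustment over all names tested, with a threshold of 0.05. A second table summed every simple repeat with its rotations and reverse complements, with library sizes and TMM factors of the unsummed table. The SE is the log2 fold change over the square root of F. CPM outside comparisons are scaled by library totals without TMM. Exact permutation tests used scipy 1.17.1. Scripts were tested on simulated counts. Named were the 10 classes, every called name, the 5 names of smallest p and the most abundant name of each class; the members, classes and lists were chosen with earlier results of these data known.

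Alternatives were scaling by total counts or relative log expression, DESeq2 1.42.0, no filter, simple repeats alone, no ribosomal RNA names, all 12 libraries in one fit, a replicate block and leaving out each library. Deviations of same-numbered libraries correlated at 0.585, 0.244 and 0.423 across 2287 names in the Gcn5 and w knockdowns (names are not independent replicates). These numbers may therefore pair the samples, but the main fits used the group alone and the block is an alternative. With the block 73 of 2142 names were called for the Gcn5 knockdown, against 2 without it. Same-numbered libraries did not all deviate together between F578A and WT (0.707, -0.108 and -0.035). Between w knockdown and WT none did (-0.508, -0.344 and -0.084).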

Additional observations from a re-analysis of the deposited data

How the results depend on the processing

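Of 729 recomputed values, 679 kept their direction and their side of the threshold or, for counts, stayed within 1.5 times. For trinucleotide shares between groups the direction alone was compared. Many of the 729 were counts of 0 or had adjusted p values far above the threshold, with little room to change side. With the replicate number as a block, the number of trinucleotide names called was 1 for the Gcn5 knockdown over the w knockdown, against 0 without it, and 2 for the w knockdown over WT (with 311 of all names called), against 6 (with 530). The block gave 1 class for F578A over WT, GCC/GGC, against 0, and 0 for the w knockdown over WT, against 1, which is (TTT)n standing alone; it changed no other count. With all 12 libraries in one fit the last count was 2. The w knockdown and WT embryos belong to different experiments, so the replicate number pairs nothing known between them. The block there is thus no test of those calls. Leaving out 1 library gave 1 to 12 names and 0 to 2 classes for the w knockdown over WT. Scaling by total counts or relative log expression gave 7 names each, which included the same 6. Of the named log2 fold changes, that of (GGA)n in the Gcn5 knockdown ran from -0.61 to 0.18 when 1 library was left out, turning positive without the second w knockdown library. The difference of both effects for GCC/GGC ran from -0.037, without the second Gcn5 knockdown library, to 0.36. The cause was not tested. In the controls, (CGG)n and (TGG)n missed the threshold in 5 of 14 alternatives each, (TTT)n and (AGT)n in 3, (ATA)n in 1 and (AGG)n in 0. The block is among the 14. Trinucleotide density stayed above that of the other motif lengths in every alternative; a median over pentanucleotide names could give no value, since it was 0 in a library. With 3 embryos a group, depth limits the rarest names, such as (ACT)n and (CCC)n, and the spread between embryos the others.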
